A study of Homo sapiens with 12 samples.

Results

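The colony-stimulating factors are secreted proteins that drive the growth, survival and activation of myeloid cells. CSF1 (M-CSF) maintains macrophages through the receptor kinase CSF1R, CSF2 (GM-CSF) acts on granulocytes, macrophages and dendritic cells through a receptor of CSF2RA and CSF2RB, and CSF3 (G-CSF) mobilizes neutrophils through CSF3R. Fibroblasts secrete all of them: CSF1 is made constitutively by many mesenchymal cells, while CSF2 and CSF3 are inducible genes whose short-lived mRNAs carry AU-rich elements, and both belong to the senescence-associated secretory phenotype (SASP).

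The genes described are CSF1, CSF2 and CSF3, which are 3 of the 62069 genes in the deposited table of RNA-seq counts. They were chosen by name from earlier results on these libraries, in which their change on RAS induction was in view, so that change is described here and not tested. The libraries came from IMR90 ER:RAS cells, human diploid lung fibroblasts at passage 13 that carry an oncogenic RAS switched on by 4-hydroxytamoxifen (4OHT), and they asked how depletion of the nuclear transport receptor XPO7 alters oncogene-induced senescence (OIS). The vector group was not induced. The vector/4OHT group received 100 nM 4OHT and was collected at day 5 after induction. The shXPO7_3/4OHT and shXPO7_5/4OHT groups were induced in the same way and expressed an shRNA against XPO7. The control hairpin vector is named in the text of the study and not in the sample labels, and all 4 groups carried the ER:RAS fusion and were grown for 7 days with a change of medium at day 4. Each group held 3 libraries, which the labels letter T, A and B, or T, A and C for vector. Whether the 3 libraries of a group were separate cultures is not in the labels, so the p-values speak only of library-to-library spread, part or all of which may be technical.

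Library totals ran from 28534141 to 60397769 counts. XPO7 itself stood at 137 ± 8.81 CPM (counts scaled to a common library size, SD, n = 3) in vector/4OHT, at 20.3% of that in shXPO7_3/4OHT and at 38.2% in shXPO7_5/4OHT. The summed level of 10 fibroblast markers, among them COL1A1 and VIM, was 48038 to 56945 CPM in vector, 42721 to 49065 in vector/4OHT, 40934 to 51142 in shXPO7_3/4OHT and 44642 to 53505 in shXPO7_5/4OHT. Of these 10 markers, 5 fell on induction and none rose, where 50.9% of all genes tested were called and 26.1% were lower. PDGFRB rose by 0.58 on the log2 scale with shXPO7_5 (edgeR adjusted p = 0.0256), beside 0.52 with shXPO7_3 (edgeR adjusted p = 0.0834). The PDGFRB call was lost in 6 of 21 alternatives (edgeR adjusted p up to 0.128), and the value with shXPO7_3 was called in 4. Of 12 haematopoietic markers, CD3E and MS4A1 were at 0 in every library and the list summed to at most 2.76 CPM. Endothelial markers, with PECAM1 and CDH5 at 0, summed to 14.6 to 15.0 CPM in vector and 9.39 to 10.2 CPM in vector/4OHT, and epithelial markers to 69.1 to 84.6 and 40.1 to 46.3 CPM. In bulk RNA, fewer cells making an mRNA and less of that mRNA in each cell cannot be told apart.

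The genes lie on 3 chromosomes and all are read from the plus strand without an overlapping gene. In GENCODE release 29 on GRCh38, CSF1 (ENSG00000184371) spans chr1:109910242-109930992, CSF2 (ENSG00000164400) spans chr5:132073790-132076170 and CSF3 (ENSG00000108342) spans chr17:40015361-40017813. Since the reads had been aligned to GRCh37, only identifiers, never positions, were used to link genes to this annotation. CSF1 is the long gene of the group, with 5.418 kb of merged exons against 0.787 kb for CSF2 and 2.22 kb for CSF3, and levels were therefore compared between genes only per kb.

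AU-rich stretches of 3′ untranslated regions, where decay factors bind an mRNA, are shown because CSF2 and CSF3 are the textbook carriers of such elements. For each gene, the 30 bases of the longest annotated 3′ untranslated region that are densest in the AU-rich pentamer are shown, with every pentamer (ATTTA) in capitals.
CSF1: ATTTAaatatctATTTAaaagataggaagc
CSF2: ATTTATTTATTTATTTATTTAagttcatat
CSF3: ATTTAtctctATTTAatATTTAtgtctatt

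The window of CSF2 begins 229 bases after the stop codon and is a run of 5 pentamers, each sharing an A with the next. That of CSF3 begins 24 bases after the stop codon and holds 3 separate pentamers, and that of CSF1 begins 2086 bases after it and holds 2. Over the whole region CSF2 held 8 pentamers in 318 bases (25.2 per kb), CSF3 held 7 in 854 bases (8.20 per kb) and CSF1 held 4 in 2154 bases (1.86 per kb). Among 19133 protein-coding genes the median was 1.48 per kb, 67.6% held at least 1 pentamer, and 6.93% held a pair of pentamers sharing an A. A density as high as that of CSF2 was found in 0.115% of these genes, that of CSF3 in 2.12% and that of CSF1 in 43.4%. The pentamers are a description of these letters and say nothing of decay in these cells.

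The CSF2 promoter is a textbook case of a compact, cytokine-responsive promoter, in which NF-kB sites and the CK-1 element lie close to the start. The 250 bases before the RefSeq start of CSF2 (GRCh38.p14, chr5:132073539-132073788, plus strand) are shown with matches to the kB pattern and the CK-1 core in capitals.
CSF2 promoter: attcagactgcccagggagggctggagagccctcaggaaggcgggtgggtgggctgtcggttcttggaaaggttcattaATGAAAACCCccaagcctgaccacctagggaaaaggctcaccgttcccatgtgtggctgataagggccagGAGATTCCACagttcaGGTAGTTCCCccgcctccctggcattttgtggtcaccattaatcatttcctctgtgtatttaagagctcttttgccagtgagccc

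The kB pattern searched, on both strands, was GGG followed by any 5 bases and CC. It matched once, as GGGAACTACC on the minus strand, 85 to 76 bases before the start, and 54.4% of 35116 RefSeq promoters of the same length held it. The CK-1 core matched at 2 places that do not overlap the kB match: GAGATTCCAC, 101 to 92 bases before the start, and GGGTTTTCAT on the minus strand, 171 to 162 bases before the start. The CK-1 core was held by 10.2% of promoters. The AP-1 pattern TGANTCA had no match in this window and stood in 6.57% of promoters. The C/EBP pattern TTNNGNAA, held by 33.2% of promoters, the CRE pattern TGACGTCA, held by 1.65%, and the TATA pattern TATAAA, held by 10.7%, had none either. Only these exact letters were searched, so variants of a site are missed. The window holds tatttaa near its end, which the TATA pattern does not match. The promoters of CSF1 and CSF3 were not analysed here.

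With RAS induction CSF1 was lower, while CSF2 and CSF3 were higher. CSF1 stood at 50.5, 45.2 and 40.8 CPM in the vector libraries T, A and C, and at 15.7, 16.3 and 16.6 CPM in the vector/4OHT libraries T, A and B. The mean was thus 45.5 ± 4.87 CPM without and 16.2 ± 0.482 CPM with induction (SD, n = 3 each). The groups did not overlap, and the induced mean was 35.6% of the vector mean, a log2 fold change of -1.49. CSF1 ranked at place 926 from the lowest log2 fold change of the 15284 genes tested.

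CSF2 was close to its limit of detection in vector cells. Its counts were 3, 5 and 4 in the vector libraries T, A and C, and 169, 158 and 217 in the vector/4OHT libraries T, A and B. As a scaled level this was 0.109 ± 0.0148 CPM against 4.87 ± 0.648 CPM (SD, n = 3 each), a ratio of means of 44.6. Counting error alone on the 12 vector counts (exact Poisson 95% interval, 6.20 to 21.0 counts) allows 25.3- to 85.4-fold. The fitted log2 fold change of CSF2 was 5.42, at place 49 from the highest of 15284 genes.

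CSF3 was not detected in vector cells, with 0 counts in 3 of 3 libraries. The vector/4OHT libraries T, A and B held 153, 102 and 181 counts, or 3.82 ± 0.317 CPM (SD, n = 3). A count of 0 allows up to 3 counts over the vector group, or 0.0276 CPM, which makes CSF3 at least 138-fold higher on induction. The low counts of CSF2 and CSF3 in vector cells meant that both passed the filter on low counts through the induced groups alone, while CSF1 passed in every group. Over all genes tested, 50.9% were called in vector/4OHT against vector, 24.8% higher and 26.1% lower. The 3 factors were chosen on this contrast, so nothing is read from these shares for them.

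**Figure D1:**
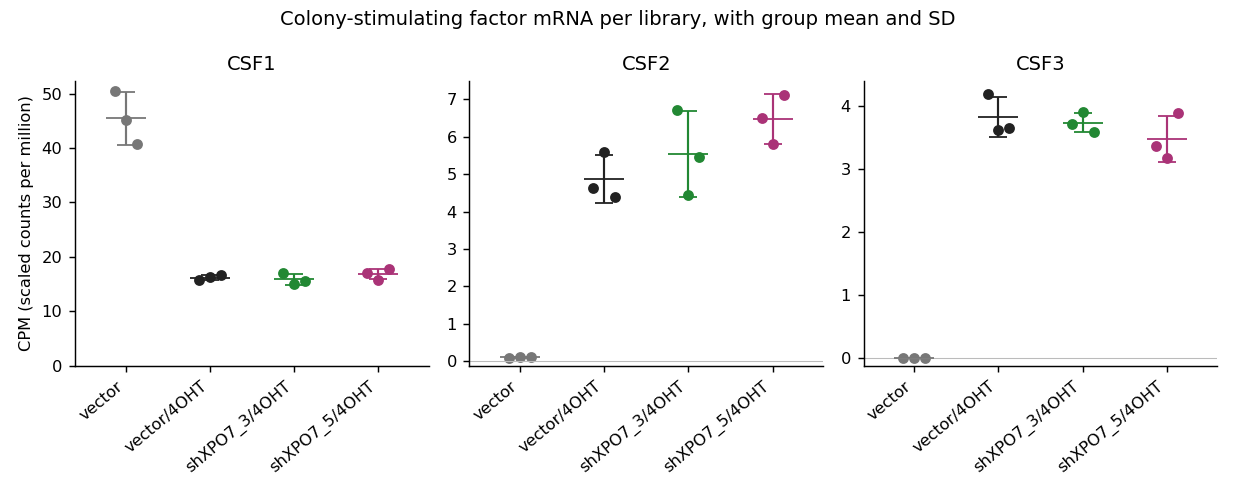
Levels of CSF1, CSF2 and CSF3 (y axis, TMM-scaled CPM, linear, with a separate scale for each gene) in the 4 groups (x axis). Points are the 3 libraries of a group in the order T, A and B (C for vector), bars are the mean and SD. CSF1 was 40.8 to 50.5 CPM in vector and 15.0 to 17.7 CPM in all 9 induced libraries, CSF2 and CSF3 were at or near 0 in vector only.

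The order of the factors differed between vector and induced cells. Per kb of merged exons, CSF1 stood at 8.40 ± 0.898 and CSF2 at 0.139 ± 0.0188 CPM per kb in vector, and at 2.99 ± 0.0890 and 6.18 ± 0.823 CPM per kb in vector/4OHT. CSF3 reached 1.72 ± 0.143 CPM per kb. The ratio of CSF2 to CSF1 per kb was 0.0168 ± 0.00359 in vector and 2.07 ± 0.277 in vector/4OHT (SD, n = 3), and it was above 1 in all 9 induced libraries. The summed level of the factors differed far less, at 8.54 ± 0.884 CPM per kb in vector and 10.9 ± 0.771 in vector/4OHT. With the longest annotated transcript in place of merged exons, a choice made after the data were seen, the CSF2 to CSF1 ratio in vector/4OHT was 1.61 and the order of the 3 levels in that group was the same. CSF1 made up 98.4% of the summed level in vector and 27.5% in vector/4OHT, where CSF2 made up 56.6% and CSF3 15.9%.

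**Figure D2:**
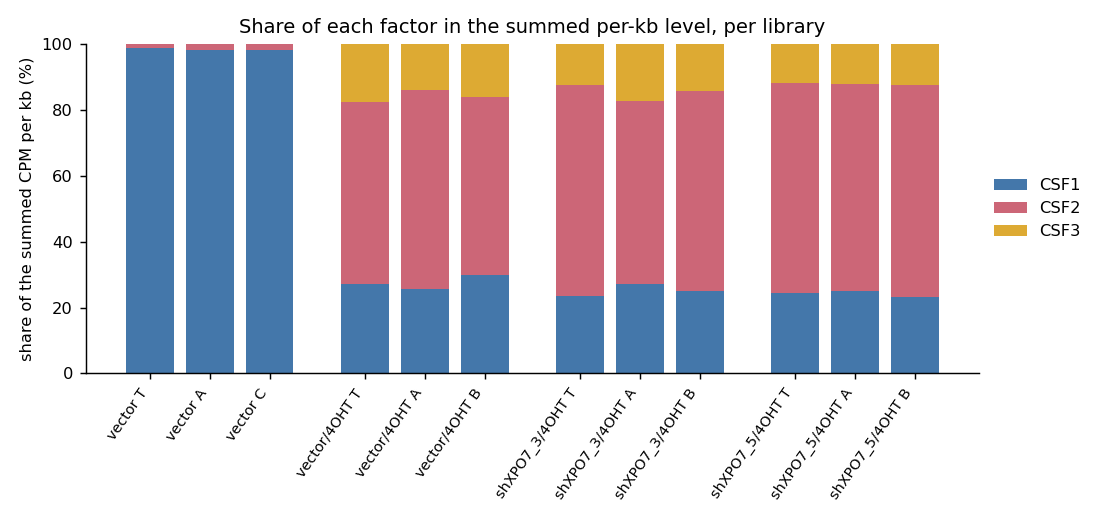
Share of CSF1, CSF2 and CSF3 in their summed CPM per kb of merged exons (y axis, percent) in each of the 12 libraries (x axis, by group and letter). CSF1 was 98.1% to 98.8% of the sum in the vector libraries and 23.2% to 29.8% in the induced libraries, where CSF2 took 54.2% to 64.4%.

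The induced levels were close to these with either shRNA. Against vector, CSF1 stood at 34.8% in shXPO7_3/4OHT and 37.0% in shXPO7_5/4OHT. CSF2 was 50.8- and 59.3-fold higher, and CSF3 at least 135- and 126-fold higher. For each gene the vector group was separate from all other libraries, and the order of the 3 induced means ran through groups that overlapped their neighbours.

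None of the 3 factors was called in a comparison of induced groups by edgeR's quasi-likelihood test, against a background of 0.124% of genes called in shXPO7_3/4OHT, 0.589% in shXPO7_5/4OHT and 0.0131% between the shRNAs. The 3 vector/4OHT libraries served as the reference for both shRNAs. CSF1 had a log2 fold change of -0.031 with shXPO7_3 (95% confidence interval -0.23 to 0.17) and of 0.058 with shXPO7_5 (-0.14 to 0.26), with edgeR adjusted p = 0.999 and 0.682. With the offset for GC content and length the value with shXPO7_5 was -0.086. Both intervals end far below a rise as large as the fall on induction (-1.49). CSF1 was chosen with that fall in view. The levels of CSF1 were 17.0, 15.0 and 15.5 CPM in shXPO7_3/4OHT and 17.1, 15.8 and 17.7 CPM in shXPO7_5/4OHT (libraries T, A and B), and both groups overlapped vector/4OHT.

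For CSF2 the knockdown with shXPO7_5 stood above the induced vector. CSF2 was at 4.62, 5.60 and 4.38 CPM in vector/4OHT, at 6.72, 4.44 and 5.46 CPM in shXPO7_3/4OHT and at 6.50, 5.80 and 7.13 CPM in shXPO7_5/4OHT (libraries T, A and B). All 3 shXPO7_5/4OHT libraries were above all 3 vector/4OHT libraries, while shXPO7_3/4OHT overlapped both. With shXPO7_5 the log2 fold change was 0.42 (95% confidence interval 0.091 to 0.75), or 1.34-fold, which did not pass the test after adjustment over all genes (edgeR adjusted p = 0.184). The exact two-sided permutation test gave p = 0.1, the smallest that 3 libraries against 3 allow, and edgeR's p before adjustment was 0.0166. In this comparison 21.6% of all genes tested had an edgeR p under 0.05 before adjustment. How many of all genes had libraries as fully separated was not counted. With shXPO7_3 the log2 fold change was 0.20 (-0.13 to 0.52, edgeR adjusted p = 0.999), and the 2 shRNAs differed by 0.22 (-0.10 to 0.55, edgeR adjusted p = 0.405).

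Leaving out 1 library changed this outcome for CSF2. Without shXPO7_5/4OHT replicate A, the library of that group with the least CSF2, the log2 fold change was 0.50 and was called (edgeR adjusted p = 0.0481), and calls among all genes numbered 3634 in place of 90. Over the 21 alternatives the CSF2 value was 0.35 to 0.53, with adjusted p from 0.0481 to 0.558. The fold changes of all genes in shXPO7_5/4OHT followed transcript GC content (Spearman rho = 0.67 over 14864 genes, which are not independent replicates), against 0.11 in shXPO7_3/4OHT. The transcripts of CSF2 average 50.3% GC, those of CSF1 57.0% and those of CSF3 61.1%. With an offset for GC content and length, the value of CSF2 was 0.39 (edgeR adjusted p = 0.148).

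CSF3 stood at 4.18, 3.62 and 3.65 CPM in vector/4OHT, at 3.70, 3.89 and 3.59 CPM in shXPO7_3/4OHT and at 3.37, 3.17 and 3.88 CPM in shXPO7_5/4OHT (libraries T, A and B). The groups overlapped. The log2 fold change was -0.036 (95% confidence interval -0.30 to 0.23, edgeR adjusted p = 0.999) with shXPO7_3 and -0.13 (-0.40 to 0.14, edgeR adjusted p = 0.470) with shXPO7_5. The offset for GC content and length moved the latter to -0.35, which also missed the threshold (edgeR adjusted p = 0.144). Within each library, the per-kb ratio of CSF3 to CSF2 was 0.321, 0.229 and 0.296 in vector/4OHT, 0.195, 0.311 and 0.233 in shXPO7_3/4OHT and 0.184, 0.194 and 0.193 in shXPO7_5/4OHT. All 3 shXPO7_5/4OHT libraries lay below the other induced libraries, though by little below library T of shXPO7_3/4OHT. This difference in the ratio is a description and was not tested.

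**Figure D3:**
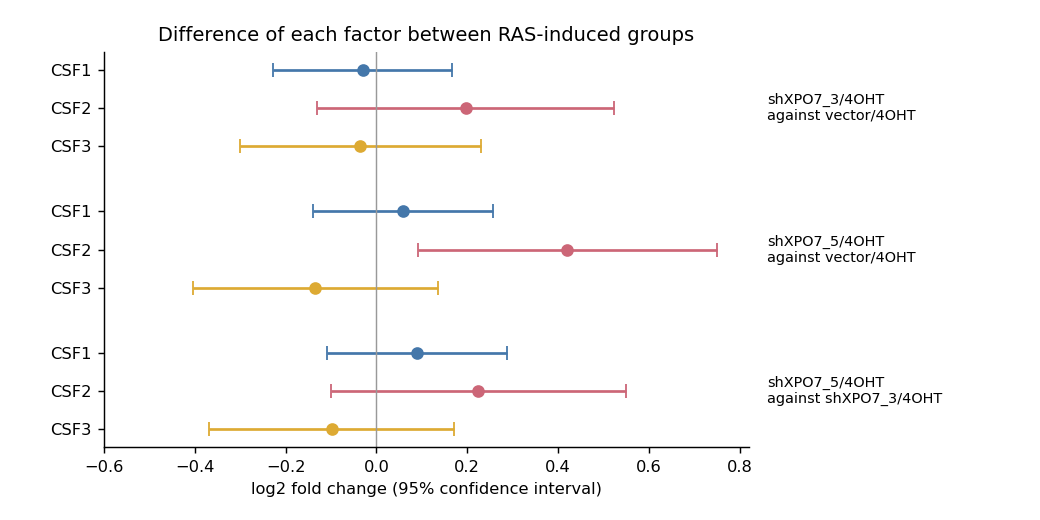
Log2 fold change (x axis) of CSF1, CSF2 and CSF3 (y axis) in the 3 comparisons of induced groups, as points with 95% confidence intervals from edgeR. Every interval covers 0 except that of CSF2 in shXPO7_5/4OHT against vector/4OHT (0.091 to 0.75), whose adjusted p was 0.184.

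The receptors of the factors were scarcely expressed by the fibroblasts. CSF2RA, the ligand-binding chain for CSF2, had at most 7 counts in a library, CSF2RB, the shared signalling chain, at most 2, and CSF3R at most 1, and none of these was tested. CSF1R, the receptor for CSF1, was higher on induction, from 0.354 ± 0.0802 CPM in vector to 0.844 ± 0.114 CPM in vector/4OHT (SD, n = 3). Its counts were 11 to 15 and 21 to 48 per library, and the CPM ranges of 0.267 to 0.425 and 0.744 to 0.968 did not overlap. The log2 fold change of CSF1R was 1.27 (SE 0.309, edgeR adjusted p = 0.00435), and it did not pass the test with either shRNA. CSF1R also marks macrophages: PTPRC, the pan-leukocyte marker, had at most 2 counts, CD14 at most 6 and CD68 at most 7 in a library, while ITGAX rose by 2.87 on the log2 scale (edgeR adjusted p = 1.0e-05), from 3 to 6 counts to 33 to 39. The 12 haematopoietic markers, CSF1R included, summed to 1.02 to 1.33 CPM in vector and 2.36 to 2.51 CPM in vector/4OHT. Their part in the CSF1R result was not tested.

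Among other haematopoietic growth factors 1 rose and 2 fell, where 24.8% of all genes tested were higher and 26.1% lower. IL34, the second ligand of CSF1R, fell by 2.88 on the log2 scale (SE 0.323, edgeR adjusted p = 1.16e-05), from 30 to 57 counts per vector library to 3 to 10 per vector/4OHT library. FLT3LG, the ligand of the dendritic cell receptor FLT3, fell by 1.95 (edgeR adjusted p = 5.17e-05). KITLG (stem cell factor) rose by 0.76 (edgeR adjusted p = 0.0249), from 113 ± 32.2 to 191 ± 17.3 CPM. The rise of KITLG was not called without vector library T or A or vector/4OHT library T or A, where adjusted p was 0.0634 to 0.0860. IL3, IL5, THPO and EPO had at most 1 count in a library, so 3 of the 7 genes were tested. None of the 3 passed the test with either shRNA.

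Upstream inducers were led by interleukin 1, the cytokine known to switch on CSF2 and CSF3 in fibroblasts. IL1B rose from 0.257 ± 0.120 to 137 ± 0.927 CPM and IL1A from 0.202 ± 0.112 to 30.7 ± 1.48 CPM (SD, n = 3), log2 fold changes of 8.99 and 7.17 with edgeR adjusted p = 4.42e-12 and 1.27e-09. IL1RAP, the accessory chain of the interleukin 1 receptor, rose by 0.69 (edgeR adjusted p = 0.00845). TNF had at most 1 count in a library and IL17A had 0 throughout. Of 7 genes on this list, 5 were tested, 3 rose and none fell in OIS, and none was called with either shRNA. Over all genes tested, 24.8% were higher and 26.1% lower in OIS.

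Of 23 genes for factors known to bind the promoters of the CSF genes, 21 were tested, and in OIS 11 rose, 3 fell and 7 did not pass the test. The median log2 fold change of the list was 0.23, beside -0.0068 over all genes tested, of which 24.8% were higher and 26.1% lower. FOS and FOSB, subunits of AP-1, rose by 2.05 and 2.03 (edgeR adjusted p = 3.0e-06 and 6.22e-06), and NFATC2, a calcium-regulated factor, rose by 1.97 (edgeR adjusted p = 3.2e-07). Other subunits of AP-1 went both ways. FOSL2 fell by 1.96, from 87.9 ± 6.34 to 22.6 ± 0.377 CPM, and FOSL1 by 1.42, from 145 ± 11.7 to 54.2 ± 1.12 CPM (edgeR adjusted p = 4.96e-09 and 6.56e-08). JUNB rose by 1.78, from 26.3 ± 1.54 to 90.3 ± 2.23 CPM, and JUN by 0.23, from 151 ± 9.15 to 176 ± 4.74 CPM (edgeR adjusted p = 1.3e-07 and 0.0269). FOS was at 0.575 ± 0.0918 CPM in vector and 2.38 ± 0.288 CPM in vector/4OHT. The remaining gene that fell was CEBPD, a C/EBP factor, by 0.71 from a mean of 11.2 to 6.87 CPM (edgeR adjusted p = 0.000312). CEBPB, another C/EBP factor, rose by 0.61 from a mean of 42.7 to 65.1 CPM (edgeR adjusted p = 0.00432). CEBPB, CEBPD, FOSL1 and FOSL2 were named after their values were seen. Among the NF-kB subunits, which were named after their values were seen, NFKB1, NFKB2 and RELB rose by 0.45, 0.66 and 0.75 (edgeR adjusted p = 8.56e-05, 8.57e-05 and 0.000351). RELA, the main activating subunit, had a value of 0.076 (edgeR adjusted p = 0.547), and REL one of -0.43 (edgeR adjusted p = 0.0573). With upper-quartile factors RELA was at -0.023. REL was called as lower in 5 alternatives: upper-quartile factors, the filter of 1 CPM, the offset for GC content and length, and without vector library A or shXPO7_5/4OHT library A (-0.54 to -0.42, edgeR adjusted p = 0.0232 to 0.0439). None of the list passed the test with either shRNA.

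Genes listed for AU-rich element binding or mRNA decay moved in both directions. Of 9 such genes, all tested, 2 rose and 4 fell in OIS, beside 24.8% higher and 26.1% lower over all genes tested. ZFP36 (tristetraprolin), which binds AU-rich elements and recruits deadenylases, fell by 1.16 on the log2 scale from 20.9 ± 1.54 to 9.32 ± 0.705 CPM (edgeR adjusted p = 9.89e-07). Its relative ZFP36L2 fell by 1.75 from 117 ± 5.22 to 34.7 ± 1.39 CPM (edgeR adjusted p = 1.53e-09). ZC3H12A (Regnase-1), an endonuclease of inflammatory mRNAs, rose by 2.14 from 5.05 ± 0.424 to 22.3 ± 0.610 CPM (edgeR adjusted p = 3.97e-09). The third relative, ZFP36L1, had a value of 0.12 in OIS (edgeR adjusted p = 0.104) and was the 1 gene of the 62 tested over these 8 lists that was called in a knockdown. It rose by 0.37 with shXPO7_5 (SE 0.0570, edgeR adjusted p = 0.0174), from 134 to 138 CPM in vector/4OHT to 168 to 182 CPM. With shXPO7_3 it stood at 158 to 165 CPM, a log2 fold change of 0.24 (edgeR adjusted p = 0.188), and the difference between the shRNAs of 0.13 was not called. Without any 1 of the vector/4OHT libraries, or without shXPO7_5/4OHT library T or B, or in a fit of only the groups compared, the rise of ZFP36L1 was not called (edgeR adjusted p = 0.0570 to 0.108). With the offset for GC content and length it was called at 0.22, and the value with shXPO7_3 was then called at 0.23. DESeq2 also called the latter, at 0.25.

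Downstream of the receptors, 17 signalling genes were listed and 16 tested, of which 3 rose, 3 fell and 10 did not pass the test in OIS. FES, a tyrosine kinase of myeloid cells, fell by 2.12 and STAT5A, a transcription factor downstream of CSF2, fell by 1.77 (edgeR adjusted p = 4.24e-06 and 1.16e-05). The level of STAT5A went from 2.98 ± 0.496 to 0.869 ± 0.0693 CPM. Its relative STAT5B, named after its value was seen, was at 34.5 ± 3.56 and 30.8 ± 1.26 CPM. STAT5B did not pass the test (-0.16, edgeR adjusted p = 0.155). The adaptor SHC1 rose by 0.66 (edgeR adjusted p = 8.23e-05). Of 5 feedback regulators and targets, 3 fell and none rose, beside 26.1% lower and 24.8% higher over all genes tested. SOCS1, an inhibitor of JAK kinases, fell by 3.29 (edgeR adjusted p = 5.94e-08), from 7.26 ± 1.43 to 0.741 ± 0.121 CPM (SD, n = 3). PIM1, a kinase induced by STAT5, fell by 1.31 and SOCS2 by 0.36 (edgeR adjusted p = 1.98e-06 and 0.00403). ADAM17 and ADAM10, proteases known to release CSF1 and other membrane-bound ligands from the cell surface, had values of 0.11 and 0.022 and did not pass the test (edgeR adjusted p = 0.382 and 0.944).

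**Figure D4:**
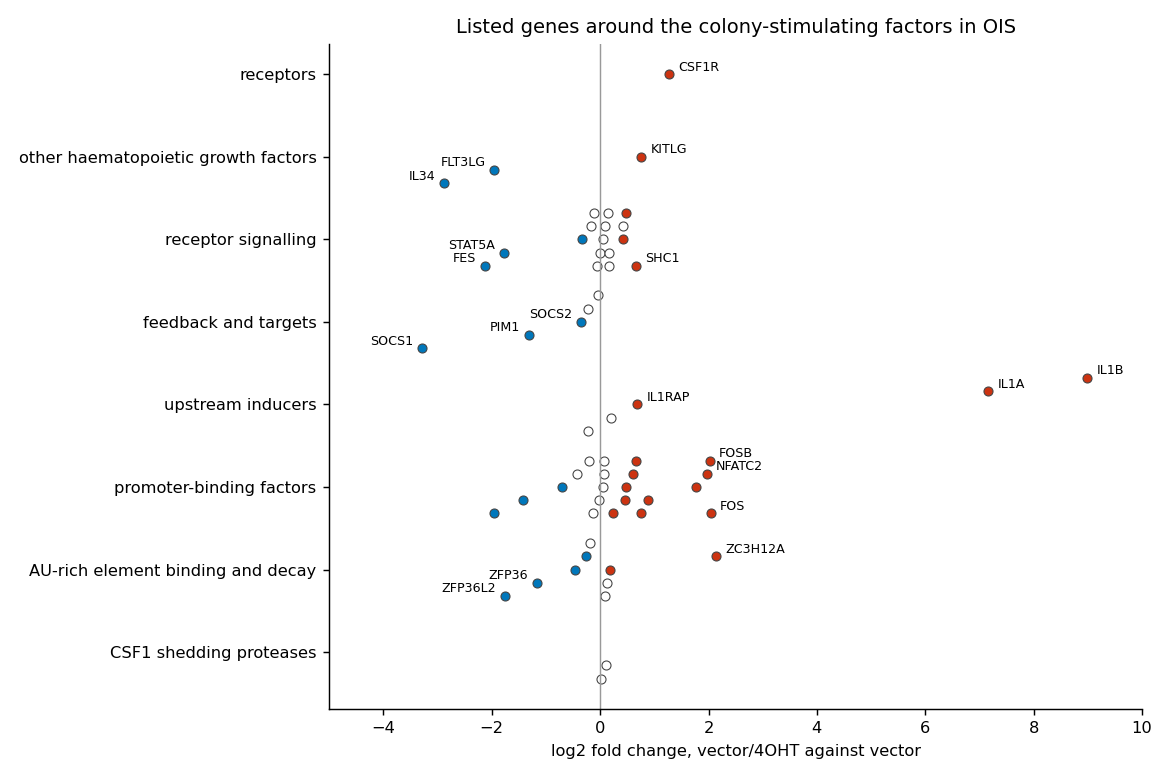
Log2 fold change in vector/4OHT against vector (x axis) of the 62 tested genes of 8 lists around the colony-stimulating factors (y axis, 1 row per list, with points spread vertically only to separate them). Filled points passed the test at an adjusted p under 0.05 (red higher, blue lower), open points did not, and labels mark up to 3 called genes per list. IL1B and IL1A stand farthest to the right at 8.99 and 7.17, and SOCS1 farthest to the left at -3.29.

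In total 36 of these 62 genes were called in OIS (58.1%), 21 higher and 15 lower, beside 50.9% of all genes tested (24.8% higher and 26.1% lower). With upper-quartile factors in place of TMM the median of all genes in OIS moved to -0.10, and the calls over all genes split into 2872 higher and 4633 lower in place of 3793 and 3984. No called gene named here changed direction under that scaling.

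Neighbours of each factor on its chromosome were taken by position, whereas the factors were chosen with their change on induction in view. The 3 nearest genes on each side in RefSeq order were taken for each factor, and 7 of these 18 had enough counts to be tested. Of the 7, 4 were called in OIS, 3 higher and 1 lower, beside 50.9% of all genes tested. Beside CSF1, AHCYL1 rose by 0.74 (edgeR adjusted p = 2.43e-07), where CSF1 itself had a value of -1.49. Beside CSF2, P4HA2 rose by 0.54 and PDLIM4 by 1.26 (edgeR adjusted p = 0.000122 and 8.62e-07), from 128 ± 10.2 and 63.4 ± 4.29 CPM in vector, while IL3, the cytokine gene next to it, was at 0 counts in every library. Beside CSF3, PSMD3 had a value of 0.058 and MED24 of -0.14 and did not pass the test (edgeR adjusted p = 0.655 and 0.286), and THRA fell by 1.01 (edgeR adjusted p = 1.25e-06). None of the 7 was called with either shRNA.

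Genes whose levels ran most like each factor were ranked by the root-mean-square difference of log2 CPM, each gene centred on its own mean over the 12 libraries. For CSF1 these were TUB, CDC25B, CUEDC1, CDC42EP4 and MCM3, with differences of 0.0613 to 0.0696. For CSF2 they were LCE2A, EGR3, GAL, TAGLN3 and MMP3, with differences of 0.221 to 0.287. For CSF3 they were BMP2, DCSTAMP, COL10A1, CXCL1 and SLC16A6, with differences of 0.169 to 0.244. All 12 libraries enter this measure, so the difference between vector and induced libraries is part of it. The differences between the induced groups are part of it too. The log2 CPM used here carries a prior count of 2. For CSF3, with 0 counts in vector, that prior count sets the vector level, so the genes matched to it depend on that choice. Those genes had log2 fold changes of 6.06 to 6.62 in OIS, below the lower bound of 7.11 for CSF3. Of these 15 genes, LCE2A and GAL were called with shXPO7_5, higher by 0.72 and 0.60 (edgeR adjusted p = 0.0192 for each), and none with shXPO7_3. Over all genes tested, 0.589% were called with shXPO7_5 and 0.124% with shXPO7_3. LCE2A and GAL were matched to CSF2 partly through their levels in shXPO7_5/4OHT, so nothing is read from their calls for CSF2. Both calls were lost in a fit of only the groups compared (edgeR adjusted p = 0.0862 and 0.0779) and without any 1 vector/4OHT library or shXPO7_5/4OHT library T or B. With the offset for GC content and length both were called, LCE2A at 0.54 and GAL at 0.34, and GAL was then also called with shXPO7_3, at 0.32 (edgeR adjusted p = 0.0089).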

How the data were processed

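The authors deposited unnormalized counts, 1 value per gene in each of 12 libraries prepared with a stranded mRNA kit. In the submitters' processing notes stand CASAVA 1.8.4, TopHat2 2.0.11 and featureCounts 1.18.0, with hg19 and GRCh37 as builds. Annotation, strand setting and treatment of multi-mapping reads: not given in the sources used here. Spike-in entries, 92 in all, were 0 throughout and stayed out.

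Groups followed the sample labels, which write shXPO7_5 for a hairpin that the study writes as shXPO7_X5. R 4.3.3 was used with edgeR 4.0.16 and limma 3.58.1. After filterByExpr (15284 genes kept) and TMM scaling, 1 quasi-likelihood fit covered the 4 groups. Benjamini-Hochberg adjustment ran over all genes tested and the threshold was 0.05. CPM values are counts relative to the TMM-scaled library size, with no pseudocount. Log2 CPM, used to rank the genes most like each member, carries a prior count of 2. For the members an exact two-sided permutation test of the difference of mean log2 CPM, with the same prior count, was added. A fold against 0 counts is a bound set by 3 counts over the group, and intervals and floors cover counting error only. Pairs of libraries within a group differed by a chi-square of 4.27 to 56.2 per gene, and each counted as its own replicate. Scripts were tested on simulated data.

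Alternatives tried were other scaling (RLE, upper-quartile), other filters (1 count in any library, or 1 CPM in 6 or more), a replicate block by letter, a fit of only the groups compared, 1 surrogate variable (sva 3.50.0), an offset for GC content and length, DESeq2 1.42.0, and leaving out each library. GENCODE 29 gave lengths and 3′ untranslated regions, and RefSeq gave promoters.

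The members and the gene lists were chosen with earlier results of these data known. Named are the members, XPO7, the receptors, up to 3 called genes per list by size of change in OIS, listed genes called in a knockdown, 3 neighbours on each side and the 5 genes most like each member. NF-kB subunits and other genes named beyond this rule were picked after their values were seen. A gene that the rule names is not reported here.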

Additional observations from a re-analysis of the deposited data

How the results depend on the processing

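Over all results and alternatives, 1189 of 1304 values kept their direction and their side of the threshold, moved by less than the spread between replicates or, for counts of calls, stayed within 1.5 times. Calls in OIS (7777) ran from 6735 to 9706. CSF1 in OIS was -1.34 with the offset for GC content and length. The lower bound for CSF3 (log2 7.11) was 6.42 to 7.15 leaving out 1 library, since fewer vector libraries raise the floor.

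Calls with shXPO7_3 (19) were 8 with upper-quartile factors, 30 with no filter, 2 with only the groups compared, 9 with 1 surrogate variable, 295 with the offset for GC content and length, 88 with DESeq2 and 1 to 24 leaving out 1 library. Calls with shXPO7_5 (90) were 217 with no filter, 10 with only the groups compared, 427 with the offset, 426 with DESeq2 and 2 to 3634 leaving out 1 library, the highest without shXPO7_5/4OHT replicate A. They were 2 without vector/4OHT T, vector/4OHT A or shXPO7_5/4OHT T, 14 without vector/4OHT B, 7 without shXPO7_5/4OHT B, 57 without vector A and 181 without shXPO7_3/4OHT T. With shXPO7_3 there was 1 call without any 1 of the vector/4OHT or shXPO7_3/4OHT libraries, and 7, 11 and 9 without vector A, vector C and shXPO7_5/4OHT T. Calls between the shRNAs (2) were 20 with no filter, 0 with only the groups compared (820 at an unadjusted edgeR p under 0.05), 1 with 1 surrogate variable, 19 with the offset, 27 with DESeq2 and 1 to 4 leaving out 1 library. The causes were not tested.

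CSF2 with shXPO7_5 ran from 0.35 to 0.53 leaving out 1 library and was called without shXPO7_5/4OHT replicate A (0.50). Leaving out 1 library, CSF1 with shXPO7_3 was -0.088 to 0.0051, CSF3 with shXPO7_3 was -0.073 to 0.035 and XPO7 in OIS was -0.011 to 0.078. Other signs that turned, in values that missed the threshold, were those of PSMD3, RELA and XPO7 in OIS with upper-quartile factors (-0.042, -0.023 and -0.077) and XPO7 with the filter of 1 CPM (-0.0070). With the offset, XPO7 in OIS was -0.026, CSF1 was -0.086 with shXPO7_5 and -0.040 between the shRNAs, where PDGFRB was -0.052 and ZFP36L1 -0.0048. The offset also brought ZFP36L1, RELA, PSMD3 and REL in OIS past the threshold (0.23, 0.21, 0.19 and -0.43).

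Same-letter libraries did not deviate together in every pair (correlations of -0.23 to 0.59, 8 of 15 over 0.1). Among pairs of other letters, 14 of 39 were over 0.1 (-0.62 to 0.51). The letters were not taken as pairs, though these correlations cannot exclude pairing. With the replicate block there were 7987 calls in OIS, 13 with shXPO7_3, 149 with shXPO7_5 and 3 between the shRNAs. An unadjusted edgeR p under 0.05 was then held by 1104 genes with shXPO7_3 and 5041 with shXPO7_5 (979 and 3302 without the block). Between the shRNAs it was held by 3559 genes (1819 without the block). In the block fit no member was called in a knockdown (CSF2 with shXPO7_5, 0.42), and PSMD3 and XPO7 in OIS were -0.0055 and -0.014. CSF2 in vector rests on 12 counts, and at this depth CSF3 there and receptors other than CSF1R could not be measured.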
